A study of Mus musculus with 17 samples.

Results

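The transcripts described here are those of 10 mouse genes, the Myc family members Myc, Mycn and Mycl with their shared partner Max, and 6 nucleolar proteins of ribosome production, Ncl, Npm1, Nop56, Nop58, Fbl and Nolc1. They were taken by symbol or Entrez number from RNA sequencing tables of prostate tissue and prostate tumours of C57BL/6 mice. Of the 10 genes, 9 were among the 13905 genes kept from the files of wild-type prostate and of constitutive tumours, where Mycn was not listed, and all 10 were among the 39179 genes kept from the files of an inducible model. Wild-type prostate (3 libraries) and tumours labelled Ctnnb1pc(ex3)delta/+ (3 libraries, the Ctnnb1 group) came from mice about 12 months old. Tumours with the same Ctnnb1 allele and a further engineered change (3 libraries, the combined group) came from mice about 6 to 8 months old. In all tumour groups used here 1 Ctnnb1 copy lacked exon 3, which encodes the part of beta-catenin that marks the protein for breakdown. The labels do not spell out the driver written as pc. In the inducible model the Cre was a CreERT2, a form switched on by tamoxifen. Its tumours carried the Ctnnb1 allele and the further change. They came from mice about 15 months old, given mock treatment (2 libraries) or androgen deprivation, ADT (3 libraries).

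MYC proteins are transcription factors that bind DNA only when paired with MAX, at E-box sequences, and Myc is a textbook target of the Wnt pathway in intestinal epithelium. A large share of the genes that MYC is known to raise serve the nucleolus, where ribosomal RNA is transcribed, modified and packed into ribosomal subunits. FBL is the enzyme that methylates ribosomal RNA within box C/D particles, and NOP56 and NOP58 are core proteins of those particles. NOLC1 is a chaperone of such particles, NCL binds nascent ribosomal RNA, and NPM1 is an abundant nucleolar chaperone that takes part in subunit export.

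Judged from the values, each is a read count per gene that the authors had scaled library by library and rounded, and it is called a scaled read count below. Their totals over listed features ran from 45675083 to 47248750 in wild-type, from 32455483 to 35120175 in Ctnnb1 and combined and from 30591734 to 32791101 in inducible-model libraries, and they are not sequencing depths, which are unknown here. Changes are differences of log2(value + 1) between group means with the standard error (SE) of limma's moderated test, and a gene was called at a Benjamini-Hochberg adjusted p under 0.05 over all genes of the comparison. None of 7 epithelial markers (among them Epcam, Krt8 and Cdh1) was at 0 in any library. The labels do not say whether the libraries of a group came from separate animals, so the p-values measure the spread between libraries only.

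Promoter sequence was taken from RefSeq (GRCm38.p6) as the 280 bases from 250 before to 30 after the annotated start, and 7 of the 10 genes matched, Mycn, Mycl, Max, Ncl, Nop56, Nop58 and Nolc1. They are shown because several of these genes moved together, and each was searched on both strands for the E-box CACGTG, the variant CACGCG and CTTTGA, the core of the motif bound by TCF/LEF factors. Capitals mark a match. The windows are those of Mycl (chr4:122995681-122995960, plus strand), Max (chr12:76962219-76962498, minus strand), Ncl (chr1:86359426-86359705, minus strand) and Nolc1 (chr19:46075597-46075876, plus strand), each written 5′ to 3′ on the strand of the gene.
Mycl: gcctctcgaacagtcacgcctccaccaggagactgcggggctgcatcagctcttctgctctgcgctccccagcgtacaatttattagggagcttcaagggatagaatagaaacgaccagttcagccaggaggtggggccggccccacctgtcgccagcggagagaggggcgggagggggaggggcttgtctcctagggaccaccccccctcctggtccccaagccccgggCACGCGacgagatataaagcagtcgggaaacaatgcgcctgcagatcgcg
Max: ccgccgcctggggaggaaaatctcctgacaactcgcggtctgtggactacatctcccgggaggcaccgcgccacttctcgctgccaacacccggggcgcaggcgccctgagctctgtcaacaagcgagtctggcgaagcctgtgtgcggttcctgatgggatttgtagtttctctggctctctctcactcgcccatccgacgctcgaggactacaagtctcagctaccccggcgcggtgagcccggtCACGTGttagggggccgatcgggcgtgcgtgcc
Ncl: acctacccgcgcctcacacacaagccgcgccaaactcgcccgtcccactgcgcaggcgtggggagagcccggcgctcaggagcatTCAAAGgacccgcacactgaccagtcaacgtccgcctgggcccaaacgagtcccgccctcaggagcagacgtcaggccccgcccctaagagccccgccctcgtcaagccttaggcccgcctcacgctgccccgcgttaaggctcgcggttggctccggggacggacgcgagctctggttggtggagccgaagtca
Nolc1: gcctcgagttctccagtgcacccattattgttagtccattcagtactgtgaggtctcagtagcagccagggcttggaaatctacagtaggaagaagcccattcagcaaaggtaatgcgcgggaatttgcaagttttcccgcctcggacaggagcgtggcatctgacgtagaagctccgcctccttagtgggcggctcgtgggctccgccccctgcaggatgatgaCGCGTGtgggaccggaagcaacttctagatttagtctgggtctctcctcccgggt
The E-box of Max begins 3 bases before its start and was the only CACGTG in the 7 windows. CACGCG or its reverse complement began 20 bases before the start of Mycl and 25 before that of Nolc1. These starts are those of RefSeq, whereas the gene spans given below are those of GENCODE M21. The Mycl window lies within its GENCODE span, which begins at 122995652. CTTTGA or its reverse complement began 165 bases before the start of Ncl and 13 before that of Mycn, and the windows of Nop56 and Nop58 held none of these motifs. Among all 32851 windows of this length, CACGTG occurred in 6.79%, CACGCG in 8.65% and CTTTGA in 15.2%. In the 129 windows of 111 other ribosome biogenesis genes described below, the shares were 14.0%, 26.4% and 10.9%. The sets of windows were not matched for base composition, so these shares do not measure an excess of a motif. A match describes letters and is not evidence of binding.

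The first comparison asks how these transcripts differ between tumours with a stable beta-catenin and wild-type prostate. In the Ctnnb1 group all 9 listed genes were called higher, where 28.9% of the 13905 genes tested were called higher and 29.6% lower (58.5% either way). The members ranged from 1.27-fold for Max to 4.49-fold for Mycl. Their median log2 change was 1.08, against 0.00 over all genes, and no member overlapped between the groups, as was the case for 71.5% of all genes (35.9% higher and 35.6% lower).

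Mycl encodes L-MYC, a paralogue of MYC best known from lung tumours of neuroendocrine type. The gene (Entrez 16918, listed under its older symbol in these files; GRCm38 chromosome 4, 122995652 to 123002485) was at 4362, 4206 and 3441 in wild-type libraries. Ctnnb1 tumours reached 17350, 19096 and 17311, and combined tumours 11671, 10115 and 15169. Every tumour library lay above every wild-type library, and the lowest Ctnnb1 library lay above the highest combined one. The log2 change against wild type was 2.17 for Ctnnb1 tumours (SE 0.15, adjusted p 2.83e-05) and 1.61 for combined tumours (SE 0.15, adjusted p 7.86e-05).

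Myc (Entrez 17869; chromosome 15, 61985391 to 61990374) was at 1638, 1710 and 1547 in wild-type prostate. Ctnnb1 tumours held 4009, 4590 and 4397, and combined tumours 2209, 1655 and 2098. Ctnnb1 libraries therefore lay above all others, whereas combined replicate 11 fell inside the wild-type range. Myc rose 2.65-fold in the Ctnnb1 group (log2 change 1.41, SE 0.11, adjusted p 4.13e-05). The combined group showed a difference of 0.27 (SE 0.11, adjusted p 0.0635), which missed the threshold. Without combined replicate 11 it was 0.40 and called (adjusted p 0.00500). Over the 13 alternatives described below it ran from 0.19 to 0.79, with adjusted p from 5.56e-04 to 0.33. Combined and Ctnnb1 tumours were not tested against each other, so the gap between these groups has no p-value.

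Max (Entrez 17187; chromosome 12, 76937269 to 76962201), the obligate partner, measured 2628, 2955 and 2868 for wild type, 3702, 3615 and 3382 for Ctnnb1 tumours and 2977, 2772 and 3645 for combined tumours. Its rise in the Ctnnb1 group was small (log2 change 0.34, SE 0.10, adjusted p 0.0213), and it was not called without Ctnnb1 replicate 13 (adjusted p 0.0665) or 14 (0.0548) or without wild-type replicate 1 (0.0753). Combined and wild-type libraries overlapped, with a log2 difference of 0.14 (SE 0.10, adjusted p 0.259).

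Per kilobase of exon, Mycl stood above Myc in every wild-type and tumour library of this set. The ratio of the 2 levels per kilobase was 1.78, 1.65 and 1.49 in wild-type libraries. Ctnnb1 tumours had ratios of 2.90, 2.78 and 2.64, and combined tumours ratios of 3.54, 4.09 and 4.84. The groups did not overlap in this ratio, which does not depend on how a library was scaled. Exon lengths were those of the protein-coding transcripts of GENCODE M21, and the isoforms in use were not measured.

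**Figure D1:**
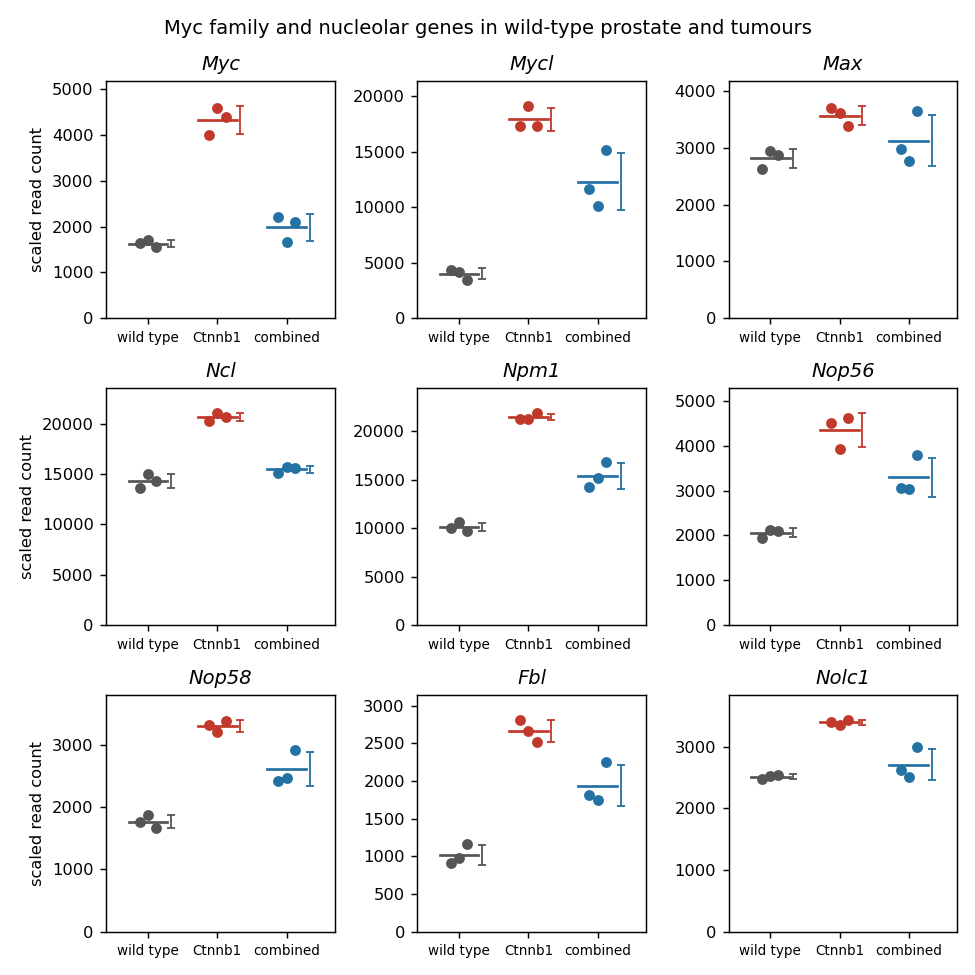
Scaled read counts (vertical axes, linear, from 0) of the 9 listed genes in wild-type, Ctnnb1 and combined libraries, 3 each. Points are libraries, horizontal lines means and bars to the right 1 SD. Every gene has its 3 Ctnnb1 libraries above its 3 wild-type libraries, and Myc, Max and Nolc1 have combined libraries inside the wild-type range.

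The nucleolar genes rose in the Ctnnb1 group by different amounts. Fbl (Entrez 14113; chromosome 7, 28169710 to 28179269), the ribosomal RNA methyltransferase, measured 907, 978 and 1163 for wild type, 2810, 2666 and 2516 for Ctnnb1 tumours and 1819, 1753 and 2252 for combined tumours. All tumour libraries were above all wild-type libraries. The log2 change came to 1.40 for Ctnnb1 (SE 0.12, adjusted p 6.13e-05) and to 0.93 for combined tumours (SE 0.12, adjusted p 3.76e-04).

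Nop56 (Entrez 67134; chromosome 2, 130274430 to 130279313), a core protein of the same particles, measured 1951, 2123 and 2107 for wild type, 4516, 3924 and 4616 for Ctnnb1 tumours and 3061, 3034 and 3785 for combined tumours. It rose 2.11-fold in the Ctnnb1 group (adjusted p 9.08e-05) and 1.59-fold in the combined group (adjusted p 8.23e-04). Its partner Nop58 (Entrez 55989; chromosome 1, 59684971 to 59719044) was at 1754, 1870 and 1664, at 3315, 3196 and 3383 and at 2422, 2468 and 2919 in the same order of groups. That amounts to 1.87-fold (adjusted p 7.90e-05) and 1.47-fold (adjusted p 7.43e-04). Nop56, Nop58 and Fbl thus had every tumour library above the wild-type range in both comparisons. Values higher without overlap were found for 35.9% of all genes in the Ctnnb1 and 32.1% in the combined comparison.

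Npm1 (Entrez 18148; chromosome 11, 33152287 to 33163206) measured 10032, 10595 and 9730 for wild type, 21249, 21254 and 21847 for Ctnnb1 tumours and 14196, 15178 and 16838 for combined tumours. It rose 2.12-fold (log2 change 1.08, SE 0.08, adjusted p 3.13e-05) and 1.52-fold (0.60, SE 0.08, adjusted p 3.68e-04). Reads of Npm1 can also match processed copies of the gene elsewhere in the genome, and how such reads were counted is not given in the sources used here.

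Ncl and Nolc1 moved least among the nucleolar members. Ncl (Entrez 17975; chromosome 1, 86344719 to 86359400) measured 13677, 15048 and 14296 for wild type, 20330, 21068 and 20663 for Ctnnb1 tumours and 15091, 15766 and 15657 for combined tumours. It rose 1.44-fold in the Ctnnb1 group (log2 change 0.53, SE 0.07, adjusted p 2.86e-04). Combined libraries lay just above the wild-type range, with a log2 change of 0.11 (SE 0.07, adjusted p 0.167). Nolc1 (Entrez 70769; chromosome 19, 46075863 to 46085530) was at 2476, 2528 and 2545, at 3401, 3351 and 3429 and at 2628, 2508 and 2990. It rose 1.35-fold in the Ctnnb1 group (adjusted p 0.00112), while the combined group overlapped wild type (log2 change 0.10, SE 0.07, adjusted p 0.240).

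In the combined group 5 of the 9 listed members were called higher (Mycl, Npm1, Nop56, Nop58 and Fbl) and 4 were not called, where 28.3% of all 13905 genes were called higher and 29.5% lower (57.8% either way). Values of 6 members, the 5 called and Ncl, lay above wild type without overlap, against 66.1% of all genes in either direction (32.1% higher and 34.0% lower). The median of the members was 0.56 against -0.01 over all genes. Both comparisons share the wild-type libraries, and age differs together with genotype in the combined group, so age and genotype cannot be told apart there. The 6 nucleolar transcripts together took 0.0804%, 0.0890% and 0.0808% of the summed values of the kept genes in wild-type prostate. The shares were 0.205%, 0.202% and 0.211% for Ctnnb1 and 0.148%, 0.150% and 0.168% for combined tumours. This share sets the sum of the 6 genes against the other transcripts of the same library. In wild type those include seminal vesicle markers that summed to 482444 to 4714049, and their part in the share was not tested. The sums of the 6 genes themselves are given below.

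When the libraries were rescaled to equal totals, the median of all genes moved up by 0.49 in the Ctnnb1 and 0.52 in the combined comparison, and 78.9% and 81.9% of the calls were then higher, against 49.4% and 48.9% as deposited. All 9 members were then called higher in both comparisons. The share of all genes called higher on that scale is not given here. Counts of calls with equal totals, here and below, are therefore to be read against this shift of all genes. For combined tumours Myc was at 0.79 (adjusted p 5.56e-04), Max at 0.66 (8.26e-04), Ncl at 0.63 (1.21e-04) and Nolc1 at 0.62 (1.91e-04) on that scale. Relative to the shift these changes stay close to those on the deposited scale. Wild-type totals also hold abundant transcripts of the seminal vesicle markers. Svs2 averaged 925000 in wild type and 1259 in Ctnnb1 tumours, and the part of such transcripts in the shift was not tested.

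**Figure D2:**
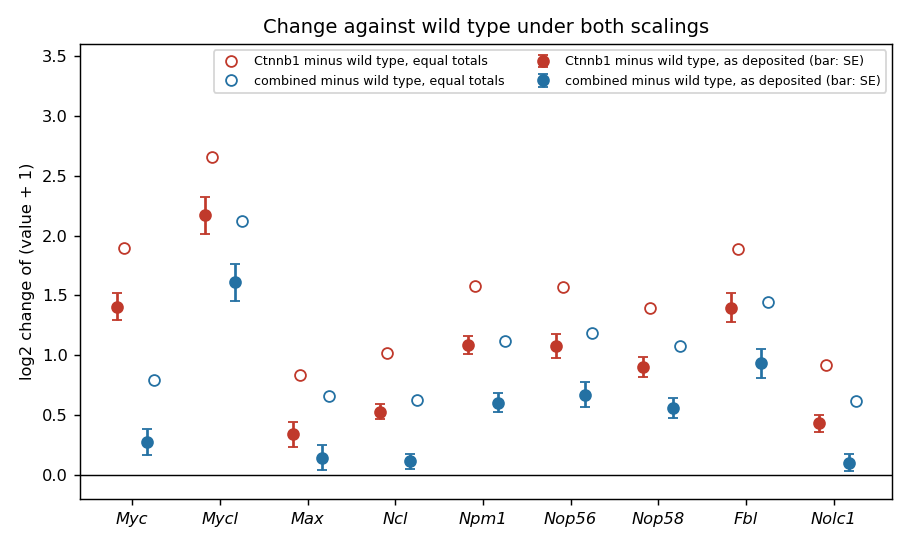
Log2 change of (value + 1) against wild type (vertical axis) for the 9 listed genes in the Ctnnb1 and combined groups. Filled points with bars (SE) use the deposited scaling and open points equal library totals. Mycl is highest in both groups, at 2.17 and 1.61 as deposited, and each open point lies about 0.5 above its filled point.

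Ncl, Nop56 and Nop58 share a feature of gene structure that the choice of genes did not use. In GENCODE M21, 3 annotated snoRNA genes lie within Ncl, 5 within Nop56 and 4 within Nop58 on the same strand, and none lie within the other 7 genes. Of 9 further host genes of snoRNAs, 6 were tested in the genotype comparisons. In the Ctnnb1 group 4 of these were higher and 1 lower, with Snhg5 at a log2 change of 1.47 (SE 0.18, adjusted p 2.86e-04) and Eif4a2, a translation initiation helicase, at -0.42 (SE 0.09, adjusted p 0.00392). Combined tumours had 1 higher (Snhg5, 1.24) and 1 lower (Eif4a2, -0.65). With equal totals Eif4a2 was not called, at 0.07 in the Ctnnb1 and -0.13 in the combined comparison, and 5 of the 6 host genes were higher and 0 lower in each.

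The wider set of ribosome biogenesis genes was examined in 5 lists, which hold 130 genes apart from the members. Of 127 tested, 89 (70.1%) were higher and 5 (3.94%) lower in the Ctnnb1 group, with a median log2 change of 0.42. Combined tumours had 53 (41.7%) higher and 15 (11.8%) lower, at a median of 0.16. The shares over all genes were those given above. With equal totals 120 were higher and 1 lower for Ctnnb1 tumours, and 108 higher and 2 lower for combined tumours. Most of the lower calls in these lists thus depend on the scaling, which shifts all genes by about the same amount.

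Factors that mature the large subunit rose for 36 of 46 tested genes in the Ctnnb1 group and 2 fell (median 0.52). Among them were Gnl3, the nucleolar GTPase nucleostemin (log2 change 1.18, SE 0.10, adjusted p 6.15e-05), the helicase genes Ddx51 (1.61) and Ddx21 (0.70), and Mybbp1a (0.90). Of the same 46 genes, 23 rose and 5 fell in combined tumours (median 0.23), with Ddx51 at 0.91 and Ddx21 at 0.41 among the higher and Las1l (-0.56) and Surf6 (-0.67) among the lower, the last 2 not called with equal totals (-0.04 and -0.16). Genes of the small-subunit processome, the particle that processes the precursor of the small subunit's RNA, rose for 31 of 43 and fell for 1 in the Ctnnb1 group (median 0.37). Noc4l (1.60, SE 0.09, adjusted p 1.34e-05), Wdr43 (0.89) and Imp4 (0.76) were higher. Nol10 was lower, at a mean of 925.0 against 2401 (-1.37, SE 0.10, adjusted p 3.23e-05), and it was lower in the combined group too (-1.78). It stayed lower with equal totals, at -0.88 and -1.27 (adjusted p 1.23e-04 and 2.48e-05). That list had 18 higher and 4 lower in the combined group (median 0.15).

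Genes of snoRNA particles and their assembly rose for 8 of 13 in the Ctnnb1 group and 1 fell (median 0.45). Dkc1, the pseudouridine synthase of box H/ACA particles, averaged 1696 against 746.7 (log2 change 1.18, SE 0.07, adjusted p 1.34e-05), and its partners Nhp2 (0.81) and Gar1 (0.89) were higher as well. The remaining partner of that particle, Nop10, was the lower gene of this list (-0.35). Combined tumours had 5 higher, with Dkc1 at 0.60, and 2 lower, with Nop10 at -0.62 (median 0.12). With equal totals Nop10 was at 0.14 and -0.11 and was not called in either comparison. RNA polymerase I genes had 10 of 16 higher and 1 lower in the Ctnnb1 group (median 0.32), with the large subunits Polr1a (1.15, SE 0.09, adjusted p 4.85e-05) and Polr1b (0.91) and the factor gene Taf1d (1.01) higher. For combined tumours 4 were higher and 1, Polr1d (-0.55), lower (median 0.05), and Polr1d was at -0.04 and not called with equal totals. Other nucleolar genes had 4 of 9 higher and 0 lower in the Ctnnb1 group (5 at an unadjusted p under 0.05; median 0.16) and 3 higher and 3 lower in the combined group (median -0.04), with Pinx1 at 0.83 and Npm3, a relative of Npm1, at -0.68 (-0.16 and not called with equal totals).

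**Figure D3:**
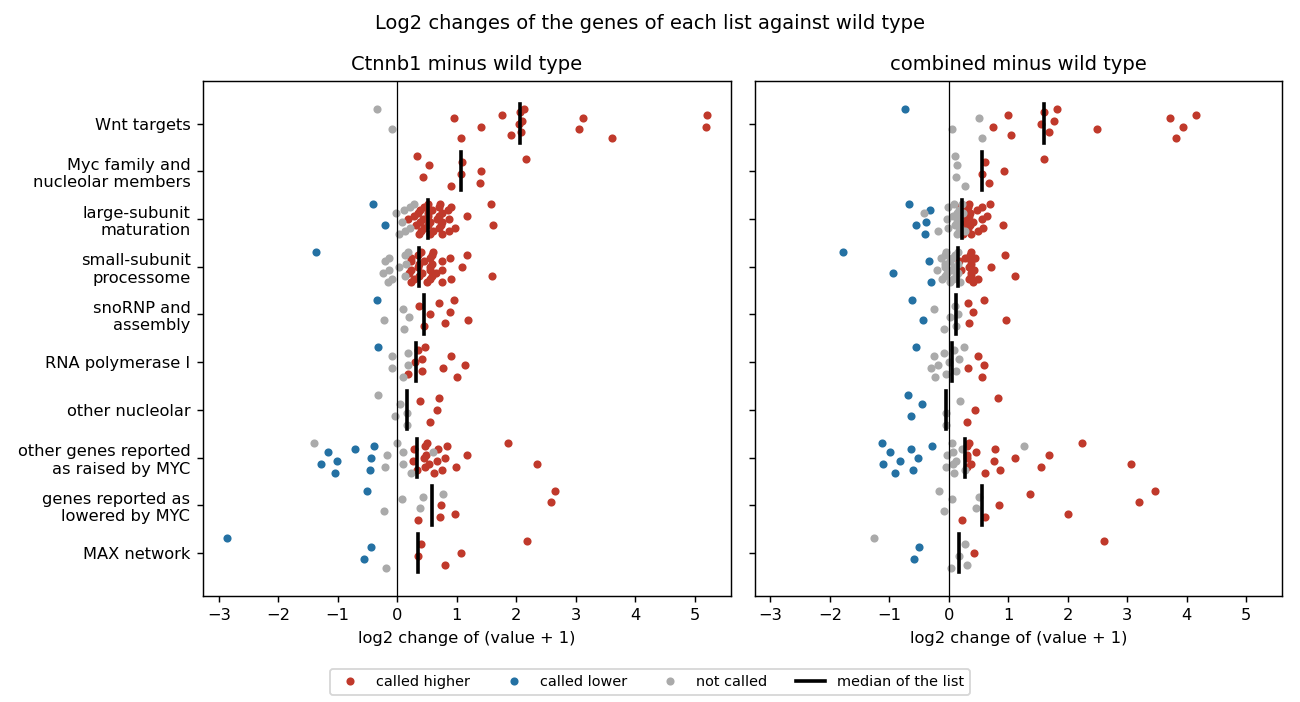
Log2 change of (value + 1) against wild type (horizontal axes) for each tested gene of 10 lists (rows), in the Ctnnb1 group (left) and the combined group (right). Red points were called higher, blue called lower and grey not called, and black lines mark list medians. The medians of the large-subunit list are 0.52 and 0.23 and those of the Wnt targets 2.06 and 1.60.

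Genes of the MAX network, which hold the partners and antagonists of MYC, were 5 of 9 higher and 3 lower in the Ctnnb1 group (median 0.35) and 2 higher and 2 lower in the combined group (median 0.17). With equal totals the counts were 5 higher and 1 lower, and 6 higher and 0 lower, so the lower calls of this list depend on the scaling apart from that of Mlxipl in the Ctnnb1 group (-2.86, and -2.38 with equal totals). Mxd3, a MAX partner that opposes MYC, averaged 93.0 against 20.7 in wild type (log2 change 2.19, SE 0.31, adjusted p 5.86e-04) and 125 in the combined group (2.61, SE 0.31, adjusted p 2.45e-04). Mga, another MAX partner, was higher in both (0.81 and 0.42) and Mlx lower in both (-0.57 and -0.50), though not called with equal totals (-0.07 and 0.02). Without wild-type replicate 1, 3 of this list were higher and 2 lower in the Ctnnb1 group, and without combined replicate 11, 4 were higher and 3 lower in the combined group.

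Genes that act on the stability of MYC protein were 6 of 10 higher and 1 lower in the Ctnnb1 group (median 0.34). Pim1, a kinase that stabilises MYC, averaged 887.0 against 147 (log2 change 2.60, SE 0.16, adjusted p 1.47e-05), and Cip2a, whose product shields MYC from a phosphatase, 466 against 121.0 (1.94, SE 0.18). Among combined tumours 4 were higher, with Cip2a (2.51) and Pim1 (2.14), and 4 lower, among them the ubiquitin ligase gene Stub1 (-0.66, and -0.14 without a call with equal totals). The median of the list there was 0.27. With equal totals 8 genes of this list were higher and 0 lower in the Ctnnb1 group, and 6 were higher and 1, Pim3, lower in the combined group (-0.84), so the balance of 4 and 4 depends on the scaling. Transcripts do not measure the amount of MYC protein.

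Other genes widely reported as raised by MYC did not move as a block. In the Ctnnb1 group 19 of 35 were higher and 8 lower (median 0.34), and in the combined group 16 were higher and 9 lower (median 0.27). The transferrin receptor gene Tfrc rose in both (1.86, SE 0.16, and 2.25, SE 0.16), and Atic, of purine synthesis, rose in the Ctnnb1 group (0.99). The phosphatase gene Cdc25a fell in the Ctnnb1 group (-1.28, SE 0.14, adjusted p 1.89e-04), and Srm, spermidine synthase, fell in the combined group (-1.13, SE 0.11, adjusted p 7.7e-05). Odc1, the first enzyme of polyamine synthesis and a classic MYC target, averaged 2188 and 2796 in the Ctnnb1 and combined groups against 4997 in wild type (-1.17 and -0.83, SE 0.16 each). It is named after its values were seen. With equal totals Cdc25a stayed lower in the Ctnnb1 group (-0.79), Srm in the combined group (-0.61) and Odc1 in the Ctnnb1 group (-0.68), while Odc1 in the combined group was not called (-0.31). On that scale 25 genes of the list were higher and 3 lower in the Ctnnb1 group, and 25 higher and 4 lower in the combined group. Genes reported as lowered by MYC had 6 of 12 higher and 1 lower in the Ctnnb1 group (median 0.58) and 7 higher and 0 lower in the combined group (8 at an unadjusted p under 0.05; median 0.56). With equal totals 10 were higher and 0 lower in the Ctnnb1 group, and 11 higher and 0 lower in the combined group. The cell cycle inhibitors Cdkn2b (2.66 and 3.47) and Cdkn1a (2.59 and 3.19) led them.

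Among Wnt target genes, 15 of 17 tested were higher in the Ctnnb1 group (median 2.06) and 13 were higher and 1 lower in the combined group (median 1.60; 14 higher and 0 lower with equal totals). Axin2, a feedback gene of the pathway, was at a log2 change of 3.06 (SE 0.20, adjusted p 2.22e-05) and 2.49 (SE 0.20, adjusted p 4.22e-05). Of the 17 changes, 13 exceeded that of Myc in the Ctnnb1 group and 15 in the combined group. For Mycl, 5 and 8 did.

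By a fixed rule, the genes outside the members whose levels most resembled those of Myc over the 9 libraries were Rapgef6, Epb4.1l5, Erbb3, Ep300 and Ccdc50, with Pearson r of log2 values from 0.98 to 0.99 among 12194 genes with a mean of at least 100. Erbb3, a receptor of the ERBB family, measured 3819, 3889 and 4044 for wild type, 7991, 8761 and 8745 for Ctnnb1 tumours and 4397, 3508 and 4921 for combined tumours, so it shares with Myc the high Ctnnb1 level and the overlap of the combined and wild-type libraries. Of the members, Ncl (0.97) and Nolc1 (0.96) resembled Myc most and Max (0.80) and Mycl (0.81) least. The mean of the 6 nucleolar members was most like Ing3, Mcmbp, Plekhh1, Prmt3 and Wdr77 (r 0.99 to 1.00), and Prmt3 encodes a methyltransferase of a ribosomal protein. These correlations describe levels that fall into 3 groups of 3 libraries, share their scaling and carry no p-value.

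Tissue makeup moved with the same comparisons. The summed values of 10 smooth muscle markers were 144728 to 185002 in wild-type, 1832 to 3542 in Ctnnb1 and 5991 to 19978 in combined libraries, and all 10 markers were lower in both tumour groups. The 10 cell cycle markers summed to 828 to 1415, 6782 to 9404 and 9589 to 13560, and all 10 were higher in both. The 7 epithelial markers summed to 58538 to 68577, 60886 to 87315 and 76333 to 105726, with 1 higher and 1 lower in the Ctnnb1 group and 2 higher and 1 lower in the combined group. The 9 macrophage markers summed to 5067 to 5555, 10639 to 20423 and 13821 to 50639. The 8 lymphocyte markers listed summed to 389 to 501, 1019 to 1196 and 1171 to 4516. Further differences lay in marker lists named for other tissues and cell types, and the source of those transcripts was not tested. The 8 seminal vesicle markers summed to 1310438, 482444 and 4714049 in wild-type libraries 1, 2 and 3, to 212 to 5165 in Ctnnb1 and to 44684 to 220028 in combined libraries, and 8 and 2 of them were called lower. The 9 skeletal muscle markers summed to 10428 to 168779, 144 to 11251 and 199 to 1373, with 8 and 9 called lower. The 9 fibroblast and endothelial markers summed to 26817 to 30665 in wild type and 17574 to 22030 in Ctnnb1 tumours, but to 178129, 399053 and 30721 in combined libraries 10, 11 and 12, where 7 were called higher. Combined replicate 11, with the highest of these sums, held the lowest Myc of its group (1655). Replicates 10 and 12 held Myc at 2209 and 2098. Mycl was at 11671, 10115 and 15169 in replicates 10, 11 and 12, in the reverse order of these sums. The relation of either gene to the sums was not tested. Of 8 neuroendocrine markers listed, 7 were lower and 1 (Foxa2) higher in the Ctnnb1 group and 4 lower and 1 (Foxa2) higher in the combined group, with sums of 1186 to 1848, 370 to 403 and 1140 to 2361. The part of tissue makeup in the member changes was not tested, and in bulk tissue fewer cells of a type and less RNA per cell cannot be told apart. The 6 nucleolar transcripts summed to 30797 to 33142 in wild-type, 55459 to 56454 in Ctnnb1 and 39217 to 44441 in combined libraries. These sums and those of the cell cycle markers lay above wild type in both tumour groups. The former were highest in Ctnnb1 and the latter in combined libraries, and their relation was not tested.

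The comparison of ADT with mock treatment concerns androgen withdrawal in the inducible model, and these files were compared only with each other. limma called 0 of the 10 members and 2 of 23289 genes (0.00859%), while 3779 genes, among them 1 member (Mycl), had an unadjusted p under 0.05. Mock and ADT libraries were fully separate for 6 members, 4 higher and 2 lower under ADT, against 33.2% of all genes, among which the higher made up 16.4% and the lower 16.8% of all genes tested.

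Mycl was at 3689 and 6845 with mock treatment and at 2250, 2773 and 1264 under ADT. All ADT libraries were below both mock libraries (log2 change -1.34, SE 0.45, adjusted p 0.264). Mycn (Entrez 18109; chromosome 12, 12936093 to 12941914), the paralogue best known from neuroblastoma and neuroendocrine prostate cancer, was at 26 in both mock libraries and at 299, 76 and 57 under ADT. ADT replicate 1 stood well above the others (log2 change 2.03, SE 0.82, adjusted p 0.329), and without it the change was 1.31 (adjusted p 0.254). The 9 fibroblast and endothelial markers summed to 309809 in that library and to 52366 and 41807 in ADT replicates 2 and 3, against 303108 and 73598 in the mock libraries. The 10 neuroendocrine markers summed to 1945 and 859 with mock treatment and to 2409, 3013 and 3141 under ADT without overlap, while their median log2 change was -0.61 and limma called 0 of 10. Foxa2, of that list, averaged 1901 against 196.5 and on average made up most of the ADT sums. Syp and Eno2 were also higher in mean, and the other markers of the list were lower, with Chga at 15.7 against 245. The part of these markers in the Mycn values was not tested. Myc was at 1308 and 2111 with mock treatment and at 1245, 1777 and 1549 under ADT, with overlapping groups (log2 change -0.14, SE 0.28, adjusted p 0.843). Max was at 2535 and 2990 against 3428, 4801 and 3549 (0.49, SE 0.20, adjusted p 0.330).

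The ratio of Mycl to Myc per kilobase was 1.89 and 2.17 in mock libraries and 1.21, 1.04 and 0.546 under ADT. ADT replicate 3 was thus the library in which Mycl lay below Myc. Per kilobase Mycn averaged 9.27 in the mock and 51.4 ± 48.0 (SD, n = 3) in the ADT group, against 699 ± 232 (SD, n = 2) and 623 ± 109 (SD, n = 3) for Myc, and Mycn was the lowest of the 3 paralogues per kilobase in each of the 5 libraries.

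Among the nucleolar members, Ncl was at 14634 and 17351 with mock treatment and at 13356, 12501 and 12835 under ADT, lower without overlap (log2 change -0.31, SE 0.13, adjusted p 0.337). Fbl went the other way, from 1511 and 1660 to 1997, 1851 and 2012 (0.30, SE 0.12, adjusted p 0.329). Nolc1 was at 2284 and 2142 against 2377, 2333 and 2560 (0.13, SE 0.11, adjusted p 0.619). Npm1 (11519 and 15142 against 13008, 12851 and 12930), Nop56 (3158 and 3141 against 4270, 3020 and 4180) and Nop58 (2149 and 2600 against 2478, 2512 and 2349) overlapped, with log2 changes of -0.03, 0.26 and 0.05. The median over the 10 members was 0.09, against -0.02 over all genes. A p that misses the threshold with 2 and 3 libraries does not show that levels were equal.

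**Figure D4:**
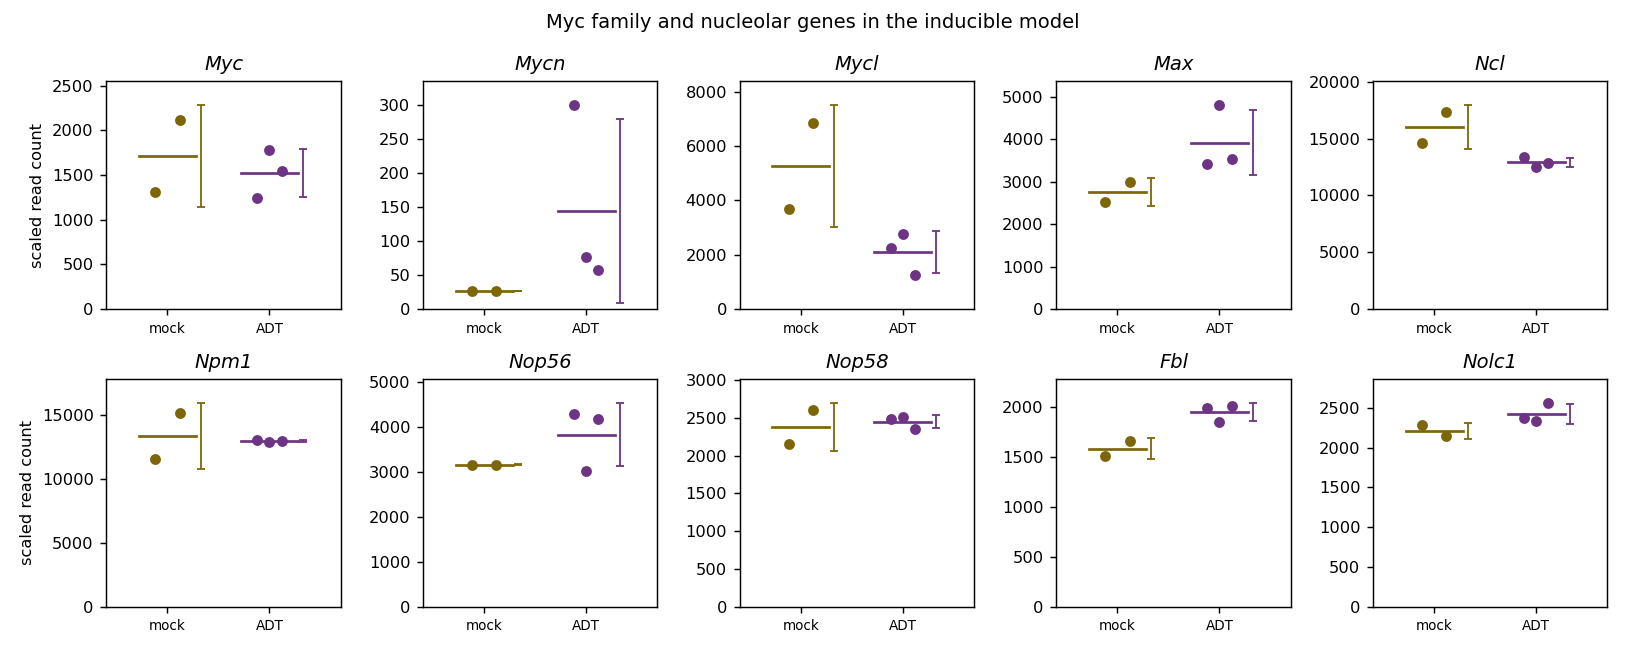
Scaled read counts (vertical axes, linear, from 0) of the 10 genes in mock (2) and ADT (3) libraries of the inducible model. Points are libraries, horizontal lines means and bars to the right 1 SD. Mycl and Ncl lie lower under ADT without overlap and Mycn, Max, Fbl and Nolc1 higher, and no gene was called.

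The Wnt target genes of the same libraries had a median log2 change of 1.64, with 0 of 19 called and 13 at an unadjusted p under 0.05, and their summed values were 66977 and 130669 with mock treatment and 339161 to 470760 under ADT. Of the 19 changes, 16 exceeded that of Myc. Of the 128 ribosome biogenesis genes tested, 0 were called, with a median of 0.06. The stability gene Skp2, part of a ubiquitin ligase that acts on MYC, averaged 854.0 against 334.0 (log2 change 1.35, SE 0.16, adjusted p 0.0989). The amino acid transporter gene Slc7a5 averaged 978.0 against 3679 (-1.88, SE 0.27, adjusted p 0.112), and neither was called. The 7 epithelial markers summed to 80164 and 111401 in mock and to 49031 to 81737 in ADT libraries. Within that list Epcam (-1.78), Cdh1 (-1.56), Krt8 (-0.76) and Krt18 (-0.33) were lower in log2 change. Krt14 (2.23), Krt5 (1.56) and Trp63 (1.03) were higher. Of the 7, 3 were lower and 0 higher without overlap, and 0 were called. The macrophage markers summed to 31029 and 101853 in mock and to 16412 to 33322 in ADT libraries. The seminal vesicle markers summed to 4803 and 283295 in mock libraries 1 and 2 and to 3, 5792 and 12691 in ADT libraries, with 5 of 8 at 0 in ADT replicate 1 and 4 in replicate 2. Lymphocyte marker sums were 4781 and 2991 against 851 to 3485, and those of skeletal muscle 11010 and 36005 against 156 to 54399. The 10 smooth muscle markers summed to 34561 and 21120 against 11058, 20968 and 19376, lower without overlap. Single markers of that list went both ways, with 2 higher and 3 lower without overlap and 0 called. Cell cycle marker sums were 10307 and 9499 against 23204, 18027 and 7568, with overlap. Their part in the member values was not tested.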

How the data were processed

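The files hold 1 value per gene for each of 17 libraries. Tools named in the submitters' processing notes, without their roles, are HTSeq 0.6.0, DESeq2 1.14.1 under R 3.2.3, TopHat2 2.1.0 with Bowtie2 2.2.6.0, and FastQC 0.11.4. The genome build named there is GRCm38.p3. The deposited values are scores: gene counts scaled per library and rounded, as judged from the values. Depth and the precision it gives are therefore unknown, and the planned test for values that are not counts was used. A further genotype group (3 libraries), comparisons resting only on the further engineered change and marker genes that were taken out of the epithelial list are not reported here.

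Features without an Entrez number (631), with a number shared by several features (270) or repeating another feature's values (389) were left out of the 15195 listed in the genotype files, and repeated Ensembl rows (3668) out of the 42847 of the inducible model. The lowest gene mean in the genotype files was 15.6, so a gene that is not listed there is not a gene without expression. A gene name table supplied 15208 symbols that the inducible-model files lack.

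Tests ran on log2(value + 1) of the deposited values. A gene entered with a value of at least 1 in 3 of 9 genotype libraries, or in 2 of 5 libraries of the inducible model. limma 3.58.1 in R 4.3.3 was fitted with group as the only factor and a trend in the prior variance. Tables and figures used Python 3.11.15, pandas 2.3.3 and matplotlib 3.10.9. The fits were tested on simulated data with the same spread setting for every gene, so that test does not cover the spread of the real libraries. Alternatives changed the pseudocount (10), the filter (none, or a mean of 50), the trend, the scaling (equal totals, quantile), the libraries (each left out, or 12 with the further group) and the replicate block.

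The 10 members and 20 other gene lists were chosen with earlier results of these data known, and no list result is independent support. The text names the members, and from each list up to 4 genes with the smallest p in a comparison, with exceptions stated. The 5 genes most like Myc, and like the nucleolar mean, were taken by Pearson r.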

Additional observations from a re-analysis of the deposited data

How the results depend on the processing

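In the Ctnnb1 comparison the calls of Myc, Mycl and the 6 nucleolar members stood under all 13 alternatives, with log2 changes of 1.36 to 1.90 for Myc, 2.06 to 2.66 for Mycl and 1.32 to 1.89 for Fbl. Max lost its call under 3 of them, given above. In the combined comparison the 5 called members kept their calls under all 13. Myc was also called with quantile normalization (0.31, adjusted p 0.0435), and Ncl too (0.37, adjusted p 0.00192). Counts of called genes over single left-out replicates ran from 6737 to 7373 in the Ctnnb1 and from 6697 to 8175 in the combined comparison, against 8131 and 8043 with all libraries, and stayed within 1.5 times under the other alternatives.

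In the ADT comparison the count of 2 called genes became 44 with equal totals, 60 with a mean of at least 50, 172 with no filter, 5 with a pseudocount of 10 and 0 with no trend. Each left-out library gave 0 to 0 calls (2334 to 3979 genes at an unadjusted p under 0.05), and where 1 mock library remained, its spread was taken to equal that of the ADT libraries. With the replicate block 0 genes were called (3206 at an unadjusted p under 0.05). The numbers are shared by only 2 pairs, whose deviations correlated at 0.223 and 0.117, so the pairing has no basis in the design. The members were called under none of these 12 settings. Over single left-out libraries the change of Myc ran from -0.49 to 0.20, that of Npm1 from -0.23 to 0.17 and that of Nop58 from -0.088 to 0.19. The sign turned without mock replicate 2 for Myc and Npm1 and without mock replicate 1 for Nop58. Mycn ranged from 1.31 without ADT replicate 1 to 2.49 without ADT replicate 3. The cause of these changes was not tested. With no depth given, counting error cannot be set apart from the spread between libraries.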
